A study of Mus musculus with 12 samples.

Results

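The genes whose messenger RNA was high in untreated, Trim47-/- LT-HSCs (long-term haematopoietic stem cells, which sustain blood formation for life) and low in such cells after 5-fluorouracil (5-FU) include the set described here: Eps8l1, Sema3d, Gprc5b, Zfp532, Zc3h6, Ddx4 and Rasa3. They are 7 of 28999 genes in the deposited table and of 16319 genes with enough counts to be tested, and all 7 passed that filter. The 12 RNA-seq libraries were of mouse bone marrow LT-HSCs in 4 groups of 3, from wild-type and Trim47-/- mice, each either untreated or given 5-FU, for which the labels state 10 days. Trim47 belongs to the tripartite-motif (TRIM) family, many of whose proteins are ubiquitin ligases, and 5-FU kills cycling cells. The labels call the mutant genotype Trim47 mutant or Trim47-/- and give no strain, age, allele, dose or route, and no separate animals behind the libraries, so the p-values rest on the spread between libraries alone, and that spread may be technical.

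The genes were chosen by measured values: the difference between genotypes in untreated cells, and the interaction (the response to 5-FU in Trim47-/- less that in wild type). Differences in those contrasts, and in the contrasts they are built from, are therefore given as descriptions, with no p. Where members past the adjusted p threshold are counted in those contrasts, the count describes the choice and supports nothing. Ranked among called genes averaging 10 CPM or more (CPM is the count scaled to a library of fixed effective size), Eps8l1, Sema3d, Gprc5b and Rasa3 stood at ranks 3 to 6 of those higher in untreated Trim47-/-. That ranking took the average over untreated libraries only, and it kept only genes with all untreated Trim47-/- libraries above all untreated wild type. Zfp532, Eps8l1, Zc3h6, Gprc5b and Ddx4 stood at ranks 2 to 6 of the most negative interactions. The lowest of the former, Rasa3, differed by 1.07 on the log2 scale, and the next gene outside, Sstr2, by 0.98. The lowest of the latter, Ddx4, had an interaction of -2.20, and the next gene outside, Zfp113, one of -2.17. Lrrc8d and Zscan2 ranked above these genes in untreated Trim47-/- and Gimap8 in the interaction, and none of the 3 is in the set. Both rankings left out Gm and Rik gene models and immunoglobulin and T-cell receptor segments.

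The 7 genes have separate known roles and are not a pathway. Eps8l1 is a relative of Eps8, a substrate of the EGF receptor that ties growth factor signals to the actin skeleton. Sema3d is a secreted class 3 semaphorin, a guidance cue read by neuropilins and plexins. Gprc5b is an orphan receptor of the G protein-coupled family C. Rasa3 is a GTPase-activating protein that switches off RAS and RAP1, and is known for its part in red cell and platelet formation. Zfp532 is a zinc finger protein found with Zmynd8, Zfp592 and Zfp687. Zc3h6 carries CCCH zinc fingers. Ddx4, the mouse Vasa gene, is a DEAD-box RNA helicase best known as a germ cell marker.

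Total counts ran from 13919649 to 20703198 and hardly differed within a group. Between 11.7% and 13.1% of genes with at least 30 counts in a group varied there beyond the 1% limit of counting noise, so the libraries of a group were not identical. Trim47 RNA was present in all libraries, at 24.6, 23.8 and 24.7 CPM in wild type without 5-FU and 23.7, 18.9 and 16.6 CPM in untreated libraries labelled Trim47-/-. After 5-FU it stood at 38.1, 33.3 and 34.7 CPM in wild type and 10.1, 12.2 and 11.6 CPM in Trim47-/-. The untreated groups did not overlap for Trim47 but lay close, and the part of the gene that was deleted is not stated in the labels, so the genotypes are named as labelled. In bulk RNA, fewer cells of a type and less RNA per cell cannot be told apart.

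The gene with the widest separation of the untreated genotypes was Eps8l1 (ENSMUSG00000006154, GRCm38 chromosome 7, 4460674 to 4480487, plus strand). Its level was 15.7, 15.7 and 17.6 CPM in wild type without 5-FU and 39.3, 39.4 and 41.9 CPM in untreated Trim47-/-, replicates 1 to 3 in order here and below. After 5-FU it was 25.8, 25.8 and 22.4 CPM in wild type and 9.61, 11.01 and 10.5 CPM in Trim47-/-. Untreated Trim47-/- was thus the highest of the 4 groups and Trim47-/- after 5-FU the lowest, and no groups overlapped. The genotypes differed by a log2 of 1.30 (SE 0.0744) without 5-FU and by -1.25 (SE 0.0789) with it.

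Sema3d (ENSMUSG00000040254, chromosome 5, 12383385 to 12588948, plus strand) stood at 25.3, 28.3 and 25.6 CPM in wild type without 5-FU and at 58.9, 58.8 and 55.5 CPM in untreated Trim47-/-. After 5-FU its libraries held 24.2, 24.8 and 20.4 CPM in wild type and 11.6, 11.8 and 11.7 CPM in Trim47-/-. The wild-type levels before and after 5-FU lay near each other without overlapping, while those of Trim47-/- lay far apart. Its genotype difference was 1.13 (SE 0.0709) untreated and -0.98 (SE 0.0773) after 5-FU.

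Gprc5b (ENSMUSG00000008734, chromosome 7, 118972047 to 118995211, minus strand) was at 13.001, 11.4 and 11.1 CPM in wild type without 5-FU and 25.2, 26.6 and 24.2 CPM in untreated Trim47-/-. After 5-FU it was at 26.4, 22.8 and 24.4 CPM in wild type and 10.1, 8.55 and 9.21 CPM in Trim47-/-. Untreated Trim47-/- and wild type after 5-FU overlapped at the higher level, and the other groups lay below both. The genotype difference went from 1.09 (SE 0.084) to -1.40 (SE 0.087).

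Rasa3 (ENSMUSG00000031453, chromosome 8, 13566948 to 13677603, minus strand) had the highest FPKM of the 7, the deposited level per length described below. It was at 109, 102 and 111 CPM in wild type without 5-FU and 234, 224 and 219 CPM in untreated Trim47-/-. After 5-FU it was at 127, 208 and 203 CPM in wild type and 141, 89.6 and 99.4 CPM in Trim47-/-. The untreated genotypes did not overlap, but after 5-FU wild-type replicate 1 lay below Trim47-/- replicate 1. The libraries of each genotype after 5-FU varied far beyond counting noise (chi-square per degree of freedom 183 in wild type and 95.96 in Trim47-/-, where counting alone gives about 1). Its genotype difference was 1.07 (SE 0.186) untreated and -0.70 (SE 0.186) after 5-FU, and the latter ran from -0.92 to -0.57 with single libraries left out.

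Among the genes chosen for their interaction, Zfp532 (ENSMUSG00000042439, chromosome 18, 65579912 to 65689443, plus strand) had the most negative interaction. It was at 17.9, 13.03 and 19.4 CPM in wild type without 5-FU and 30.2, 29.5 and 28.3 CPM in untreated Trim47-/-. After 5-FU it stood at 15.7, 15.2 and 14.2 CPM in wild type and 3.18, 4.27 and 5.15 CPM in Trim47-/-. The wild-type groups overlapped, and both Trim47-/- groups lay outside them, one above and the other below. The difference between genotypes was 0.81 (SE 0.143) and then -1.84 (SE 0.17).

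Zc3h6 (ENSMUSG00000042851, chromosome 2, 128967402 to 129018563, plus strand) was at 9.34, 9.01 and 10.6 CPM in wild type without 5-FU and 16.9, 17.7 and 17.3 CPM in untreated Trim47-/-. After 5-FU its levels were 21.7, 18.9 and 26.8 CPM in wild type and 6.57, 7.17 and 6.89 CPM in Trim47-/-. Here wild type after 5-FU, not untreated Trim47-/-, was the highest group, and none overlapped. The genotype difference was 0.84 (SE 0.115) and then -1.71 (SE 0.12). The opposite strand of its locus carries exons of Gm10762, which averaged 8.63 CPM. Gm10762 differed in the same directions, by 0.37 (SE 0.0928, adjusted p = 0.0104) untreated and by -0.31 (SE 0.0954, adjusted p = 0.0164) after 5-FU in edgeR's quasi-likelihood test. Whether the counts used strand is not given in the sources used here. Reads of the pair may therefore not be told apart.

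Ddx4 (ENSMUSG00000021758, chromosome 13, 112598333 to 112652475, minus strand) was at 12.7, 14.2 and 11.96 CPM in wild type without 5-FU and 20.5, 18.8 and 18.8 CPM in untreated Trim47-/-. After 5-FU it was at 14.7, 16.7 and 16.01 CPM in wild type and 4.84, 4.93 and 5.58 CPM in Trim47-/-. No groups overlapped. It had the smallest untreated difference of the 7, 0.58 (SE 0.0831), and then one of -1.62 (SE 0.093). No annotated gene overlaps Ddx4 in GENCODE M21, nor Rasa3.

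**Figure D1:**
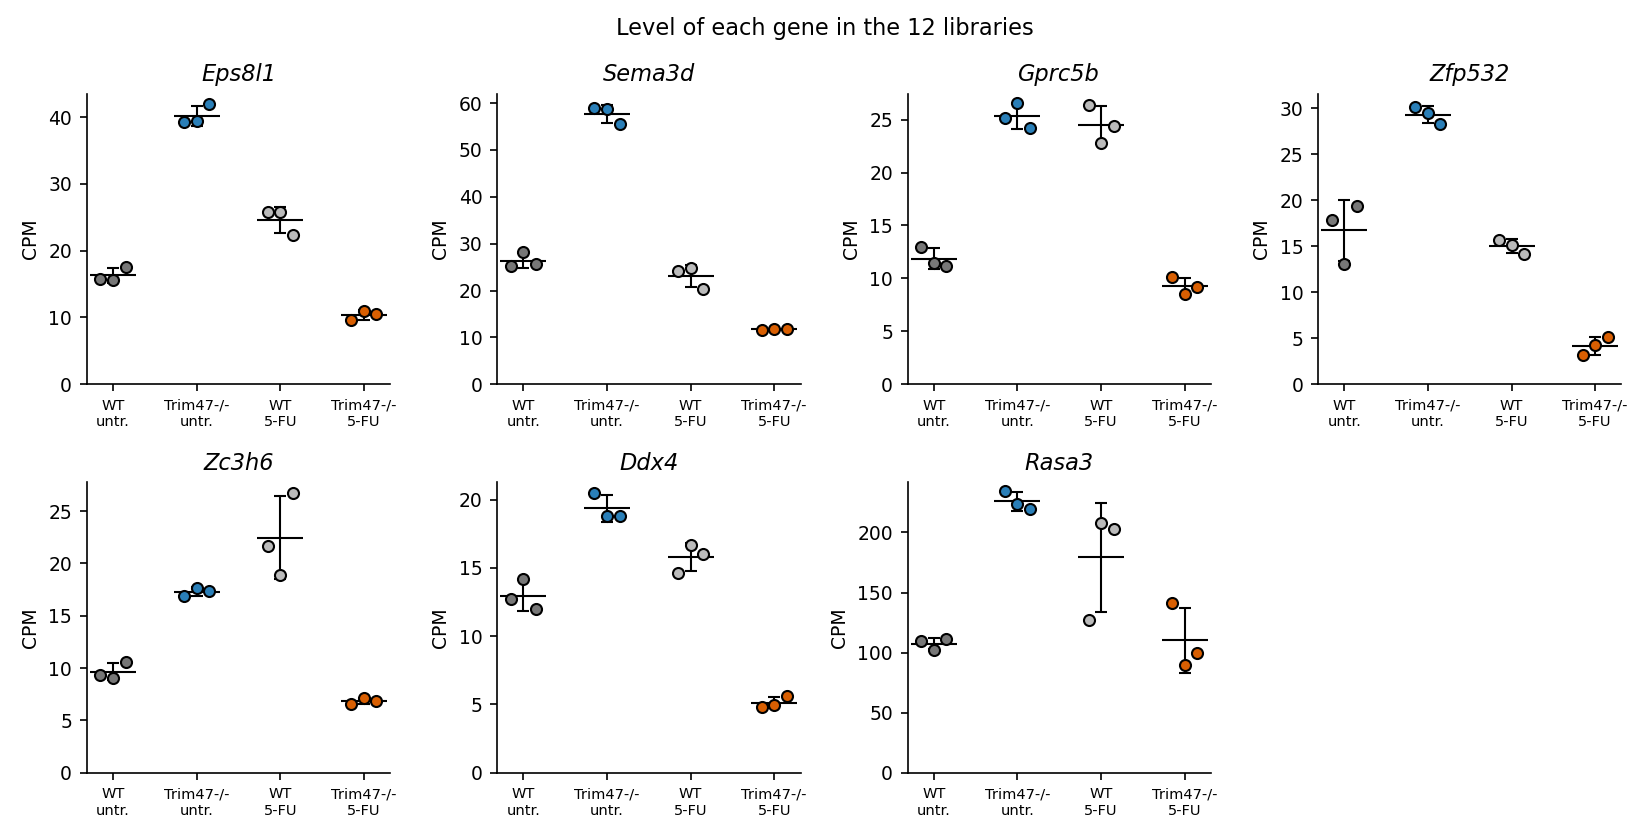
Level of each of the 7 genes in CPM (vertical axis, from 0) in the 3 libraries of each group (points, replicates 1 to 3 from left to right), with the group mean and SD as bars. Untreated Trim47-/- lies above untreated wild type in each panel, and Trim47-/- after 5-FU lies below wild type after 5-FU in all panels but Rasa3, where 127 CPM in a wild-type library falls under 141 CPM in a Trim47-/- library.

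The up and then down order held for all 12 libraries in 6 of the 7 genes, Rasa3 being the exception. The order counted here was all 3 untreated Trim47-/- libraries above all 3 untreated wild type and all 3 Trim47-/- libraries below all 3 wild type after 5-FU. Of all tested genes, 15% had it. The untreated part of the order held in 7 of 7 genes against 26.3% of all genes, and the part after 5-FU in 6 of 7 against 30.7%. The choice used these values, and the untreated ranking required the untreated part of the order. These counts therefore describe the choice and support nothing. By edgeR's adjusted p under 0.05, 7 of 7 were called higher in untreated Trim47-/- (17.6% of all genes), 7 of 7 lower after 5-FU (27.6%) and 7 of 7 negative in the interaction (28.5%). The median difference of the 7 was 1.07 untreated and -1.40 after 5-FU, beside 0.03 and -0.00037 over all tested genes. Interactions ran from -2.64 (Zfp532) to -1.78 (Rasa3).

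**Figure D2:**
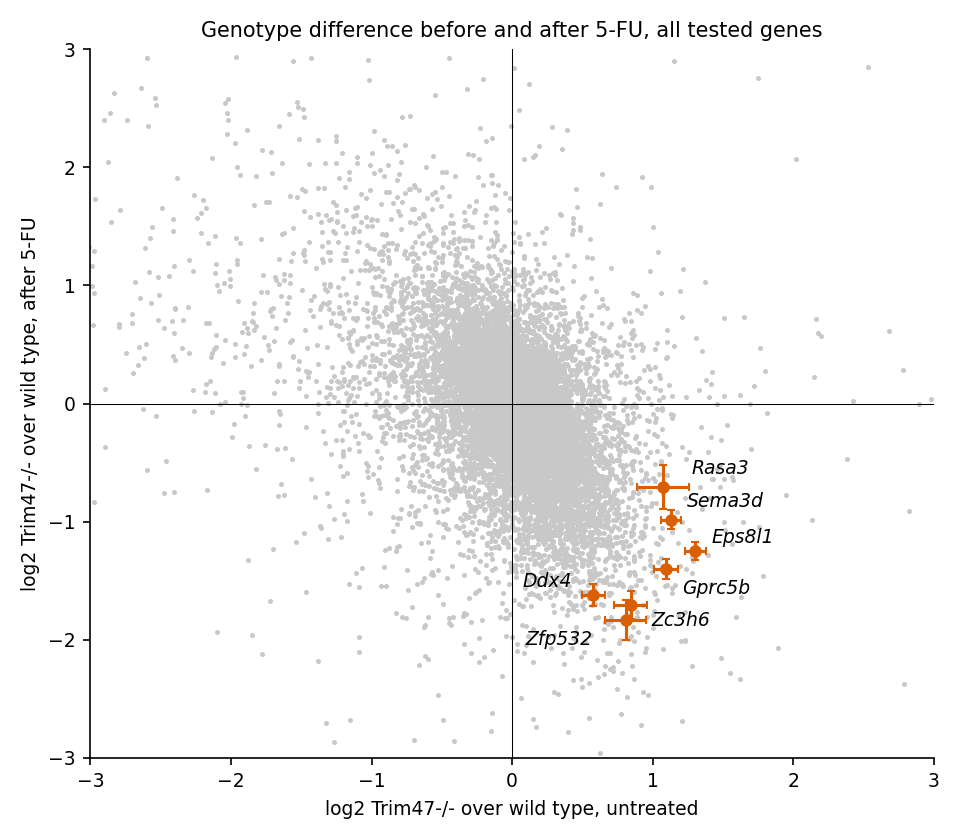
Log2 difference of Trim47-/- from wild type in untreated cells (horizontal) and after 5-FU (vertical) for all tested genes (grey; 139 lie outside the axes) and for the 7 genes (orange, bars SE). The 7 lie at the lower right, between 0.58 and 1.30 untreated and between -1.84 and -0.70 after 5-FU, where the choice put them.

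The set split by what wild-type cells did. After 5-FU, Zc3h6 (1.22, SE 0.115) and Gprc5b (1.05, SE 0.0847) were more than 2-fold higher in wild type, with Rasa3 (0.74, SE 0.186), Eps8l1 (0.60, SE 0.0756) and Ddx4 (0.28, SE 0.0846) between. Zfp532 (-0.16, SE 0.147) and Sema3d (-0.19, SE 0.0729) were not higher. By the same threshold, 5 of 7 were called higher (25.2% of all genes) and 1, Sema3d, lower (25.4%). In Trim47-/- all 7 were called lower after 5-FU (30.8%), from -1.04 (SE 0.186) for Rasa3 to -2.80 (SE 0.165) for Zfp532. The 5-FU response in each genotype is a part of the interaction, so these counts too are descriptions. Each genotype's response uses its own libraries, and the interaction uses both.

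The choice did not rank genes by the mean 5-FU response over both genotypes. With equal groups of equal precision, that contrast is orthogonal to both the untreated difference and the interaction. The untreated ranking also asked for an average of 10 CPM in untreated libraries, which is not orthogonal to it. The test is therefore not wholly free of the choice. In edgeR's quasi-likelihood test 5 of the 7 fell and none rose, beside 29.3% of all genes that fell and 56.7% that changed in either direction. Zfp532 fell by 1.48 (SE 0.111, adjusted p = 4.68e-07) and Sema3d by 1.25 (SE 0.0525, adjusted p = 3.46e-09), as log2 differences. Ddx4 fell by 0.82 (SE 0.0624, adjusted p = 5.47e-07), Eps8l1 by 0.68 (SE 0.054, adjusted p = 7.83e-07) and Gprc5b by 0.20 (SE 0.0603, adjusted p = 0.0149). Rasa3, at -0.15 (SE 0.13, adjusted p = 0.357), and Zc3h6, at -0.06 (SE 0.0828, adjusted p = 0.596), did not pass. In these last genes a higher level in wild type after 5-FU and a lower one in Trim47-/- nearly cancelled. Gprc5b (1.05), Eps8l1 (0.60) and Ddx4 (0.28) were also higher in wild type after 5-FU, so their mean fell only through Trim47-/-. The median of the 7 was -0.68, beside -0.0028 over all tested genes. At least a 2-fold mean fall was met by Zfp532 and Sema3d only, and at an adjusted p under 0.01 Gprc5b was no longer called.

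**Figure D3:**
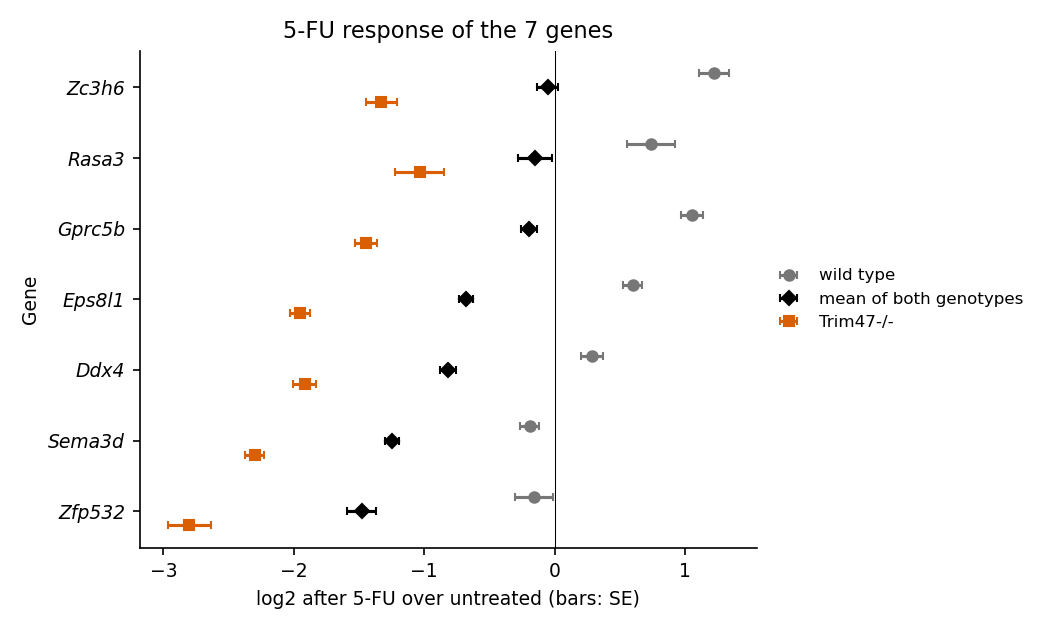
Log2 level after 5-FU over untreated for the 7 genes (rows) in wild type (grey circles), in Trim47-/- (orange squares) and as the mean of both (black diamonds), with SE bars. All orange points lie left of 0, from -2.80 to -1.04, while wild type runs from -0.19 for Sema3d to 1.22 for Zc3h6.

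Levels were compared between genes per length, by the deposited FPKM (fragments per kilobase of transcript, scaled to library size). In untreated wild type Rasa3 stood highest at 13.8 ± 0.61 FPKM (SD, n = 3 for each value here), then Ddx4 at 3.38 ± 0.295 and Sema3d at 1.99 ± 0.122. Gprc5b (1.61 ± 0.133), Eps8l1 (1.59 ± 0.109) and Zc3h6 (1.54 ± 0.135) did not differ beyond their spread, and Zfp532 stood lowest at 0.618 ± 0.123. In Trim47-/- after 5-FU Rasa3 stood at 14.4 ± 3.6 and Zfp532 at 0.158 ± 0.0369 FPKM, again the highest and the lowest of the 7, while Sema3d, at 0.898 ± 0.0085, stood next to the lowest. The lengths behind these values ran from 3737 bases for Ddx4 to 26404 for Zfp532. They were 1.08 times (Zc3h6) to 2.94 times (Zfp532) the union of exons in GENCODE M21, so FPKM understates Zfp532 most by that annotation. Differences within a gene do not depend on the length.

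The spread within groups was near counting noise for Eps8l1, Gprc5b and Ddx4 (chi-square per degree of freedom 0.443 to 2.49). It was larger for Zc3h6 in wild type after 5-FU (11.1) and Zfp532 in untreated wild type (9.54). GENCODE M21 lists 27 transcripts for Zfp532, 14 for Eps8l1, 6 for Rasa3, 5 for Sema3d, 4 for Gprc5b and 2 each for Zc3h6 and Ddx4. Gene counts may thus depend on how reads were divided among transcripts, which was not tested.

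What the promoters share was read from RefSeq (GRCm38.p6), which gave a start for 6 of the 7 genes in the table used. The window is 250 bases before to 50 after the start nearest the gene's 5′ end in GENCODE. In these windows all 6 held at least as many CpG as the median of 7 over 32851 promoters, from 8 in Sema3d to 38 in Ddx4, and their GC content ran from 49.7% to 72.0% around a median of 52.7%. The SP1 box (GGGCGG, both strands, here and for each motif) was found in 5 of 6, beside 35.7% of all promoters, and the CCAAT box, by the letters of its name, in 5 of 6, beside 37.4%. The ETS core (CCGGAA) was found, among these windows, in Sema3d only (14.9% of all promoters) and the E-box (CACGTG) in Ddx4 only (7.15%). No match was found to the AP-1 letters TGANTCA, held by 7.81% of all promoters, or to the cAMP response element TGACGTCA, held by 1.79%. The same was so of the core for GATA factors, spelled AGATAA (11.2% of all promoters), of the core for RUNX factors, spelled TGTGGT (16.8%), and of the TATA box, spelled TATAAA (13.6%). The 3 promoters below show this range, from the CpG-poorest to the CpG-richest, with Eps8l1, the highest of the 7 in the untreated difference, between. Capitals mark the motif matches, none of which overlap, and a match is a string of letters, not a bound site.
Sema3d, chr5:12382916-12383215, plus strand: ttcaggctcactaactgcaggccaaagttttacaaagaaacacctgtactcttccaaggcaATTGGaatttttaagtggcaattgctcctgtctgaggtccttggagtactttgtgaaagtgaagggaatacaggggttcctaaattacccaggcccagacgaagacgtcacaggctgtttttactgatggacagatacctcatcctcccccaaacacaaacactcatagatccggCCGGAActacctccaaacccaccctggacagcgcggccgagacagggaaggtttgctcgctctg
Eps8l1, chr7:4460447-4460746, plus strand: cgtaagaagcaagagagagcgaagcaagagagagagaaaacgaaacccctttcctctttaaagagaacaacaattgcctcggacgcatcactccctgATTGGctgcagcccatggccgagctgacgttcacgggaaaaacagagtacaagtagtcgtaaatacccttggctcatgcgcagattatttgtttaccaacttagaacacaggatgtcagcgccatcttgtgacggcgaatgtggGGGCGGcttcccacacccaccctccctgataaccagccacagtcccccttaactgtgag
Ddx4, chr13:112652261-112652560, minus strand: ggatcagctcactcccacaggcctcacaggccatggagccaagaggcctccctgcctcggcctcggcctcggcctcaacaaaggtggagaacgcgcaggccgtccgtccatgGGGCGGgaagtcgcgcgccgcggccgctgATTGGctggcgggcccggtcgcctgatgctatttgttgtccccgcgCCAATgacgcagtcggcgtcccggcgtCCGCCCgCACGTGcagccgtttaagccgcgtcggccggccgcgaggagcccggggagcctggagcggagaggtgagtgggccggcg
The Ddx4 window holds 2 SP1 and 2 CCAAT boxes and the E-box 29 bases before the start. Eps8l1 has 3 starts in RefSeq, and the one shown lies 23 bases from the GENCODE start. The windows of its other starts held 7 and 3 CpG, one with an ETS core and the other with a GATA core.

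The genes with the most similar pattern were named by the highest Pearson correlation of log2 CPM over the 12 libraries, among 9259 other genes averaging 10 CPM or more. For Eps8l1 they were Sall2 (r = 0.987) and Rbbp5 (0.984), and for Sema3d Cntln (0.994) and Tnks1bp1 (0.992). For Gprc5b they were Xpc (0.994) and Mycn (0.984), for Zc3h6 Ppp1r9b (0.987) and Srek1ip1 (0.987), and for Ddx4 Clip2 (0.992) and Hspa12b (0.992). Pld2 (0.984) was among those for Zfp532. Rasa3 had the least similar neighbours, Osbpl11 (0.938) and Ctps2 (0.928). Among the 7 themselves r ran from 0.604 (Zfp532 with Rasa3) to 0.952 (Zfp532 with Ddx4). The libraries share 4 group means, which carry most of these correlations, so they are a description.

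Relatives and partners of the 7 genes, listed by family and not by how they moved, did not share 1 direction. Of 72 listed, 67 were in the table and 54 were tested. In untreated cells 12 rose and 9 fell in Trim47-/- (17.6% and 15.4% of all genes), and 33 did not pass. After 5-FU 15 were higher and 19 lower (27.2% and 27.6%), and 20 did not pass. The medians were -0.02 and -0.08, beside 0.03 and -0.00037 over all genes. All calls here are edgeR's at an adjusted p under 0.05 over all tested genes. The untreated count of 12 fell to 7 with the DESeq2 test, and to 7 without untreated wild-type replicate 2 or untreated Trim47-/- replicate 3.

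Of 8 tested genes of the Eps8 family and its actin partners, 2 rose and none fell in untreated Trim47-/-, and 1 was higher and 3 lower after 5-FU. Both that rose were Eps8 paralogs. Eps8 was at 28.7 ± 1.14 CPM in wild type without 5-FU and 33.1 ± 0.425 CPM in Trim47-/- (SD, n = 3 each), which is a log2 difference of 0.21 (SE 0.0674, adjusted p = 0.0351). After 5-FU it was at 44.1 ± 0.9 and 25.99 ± 2.89 CPM, a log2 of -0.76 (SE 0.068, adjusted p = 2.62e-06). Eps8l2 differed by 0.29 (SE 0.103, adjusted p = 0.0465) and -1.23 (SE 0.114, adjusted p = 3.55e-06), the same order as Eps8l1 at smaller untreated size. After 5-FU the scaffold gene Baiap2 was higher in Trim47-/- than in wild type (0.66, SE 0.0872) and Abi2 lower (-0.46, SE 0.142). Eps8l3 was under the filter on low counts.

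Only 1 paralog of Gprc5b was tested, Gprc5a, and it moved the opposite way. It was at 21.3 ± 1.44 CPM in wild type without 5-FU and 10.8 ± 0.409 CPM in untreated Trim47-/-, a difference of -0.98 (SE 0.123, adjusted p = 0.000113). After 5-FU it was at 3.92 ± 0.793 and 7.48 ± 1.12 CPM, log2 0.93 (SE 0.147, adjusted p = 0.000233). Gprc5c and Gprc5d were under the filter. Of the other class 3 semaphorins only Sema3f passed the filter, at group means of 0.83 to 1.47 CPM, and it was not called in either state. Of its 8 tested relatives and receptors, 1 rose and 1 fell untreated, and 2 were higher and 2 lower after 5-FU. The neuropilin Nrp1 fell by 0.76 (SE 0.124) untreated and the plexin Plxnd1 rose by 0.28 (SE 0.0311). After 5-FU Nrp2 (0.82, SE 0.209) and Plxnd1 (0.12, SE 0.0311) were higher and Plxna1 (-0.40, SE 0.0838) and Plxna3 (-0.39, SE 0.104) lower.

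Of 15 regulators of RAS and RAP1 related to Rasa3, 4 rose and 3 fell untreated, and 5 were higher and 7 lower after 5-FU. Rap1gap, a RAP1 inactivator like Rasa3, rose by 0.61 (SE 0.152, adjusted p = 0.00971) and was then lower by -1.10 (SE 0.159, adjusted p = 0.000121). Rasal3 (0.37 and -0.41, SE 0.0368 and 0.0372) and Rasa1 (0.18 and -0.32, SE 0.0447 and 0.0454) followed the same order. Rasa4 (-0.19 and 0.33, SE 0.046 and 0.0465) and Nf1 (-0.52 and 0.32, SE 0.0704 and 0.0723) had the opposite one. Rasa2 did not pass untreated (-0.09, SE 0.0688) and was higher after 5-FU (0.94, SE 0.0695). The GTPase gene Rap1b itself fell by 0.18 (SE 0.0331) and was then higher by 0.62 (SE 0.0332).

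The germ line genes that act beside Ddx4 in RNA granules and the piRNA pathway were mostly near 0. Of 14 listed, 10 were in the table and 4 were tested. Dazl reached at most 7 counts in a library and Tdrd9 11, while Ddx4 had 67 to 418. Among the tested, Pld6 rose (0.45, SE 0.138) and Tdrd7 fell (-0.29, SE 0.0551) in untreated Trim47-/-, and Tdrkh was lower after 5-FU (-0.32, SE 0.0991). Of 15 relatives of Zc3h6 in the Zc3h series, 3 rose and 3 fell untreated, and 6 were higher and 4 lower after 5-FU. Zc3h12a, the ribonuclease Regnase-1, fell by 0.29 (SE 0.0187) and was then higher by 0.87 (SE 0.0191). Zc3h7a had the same order (-0.37 and 0.45, SE 0.0313 and 0.0315), and Zc3h7b the reverse (0.24 and -0.22, SE 0.0351 and 0.0354). Of the 3 partners of Zfp532, Zfp592 rose by 0.18 (SE 0.0267) untreated and was lower by -0.09 (SE 0.027) after 5-FU, and Zmynd8 was lower after 5-FU (-0.18, SE 0.0357).

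**Figure D4:**
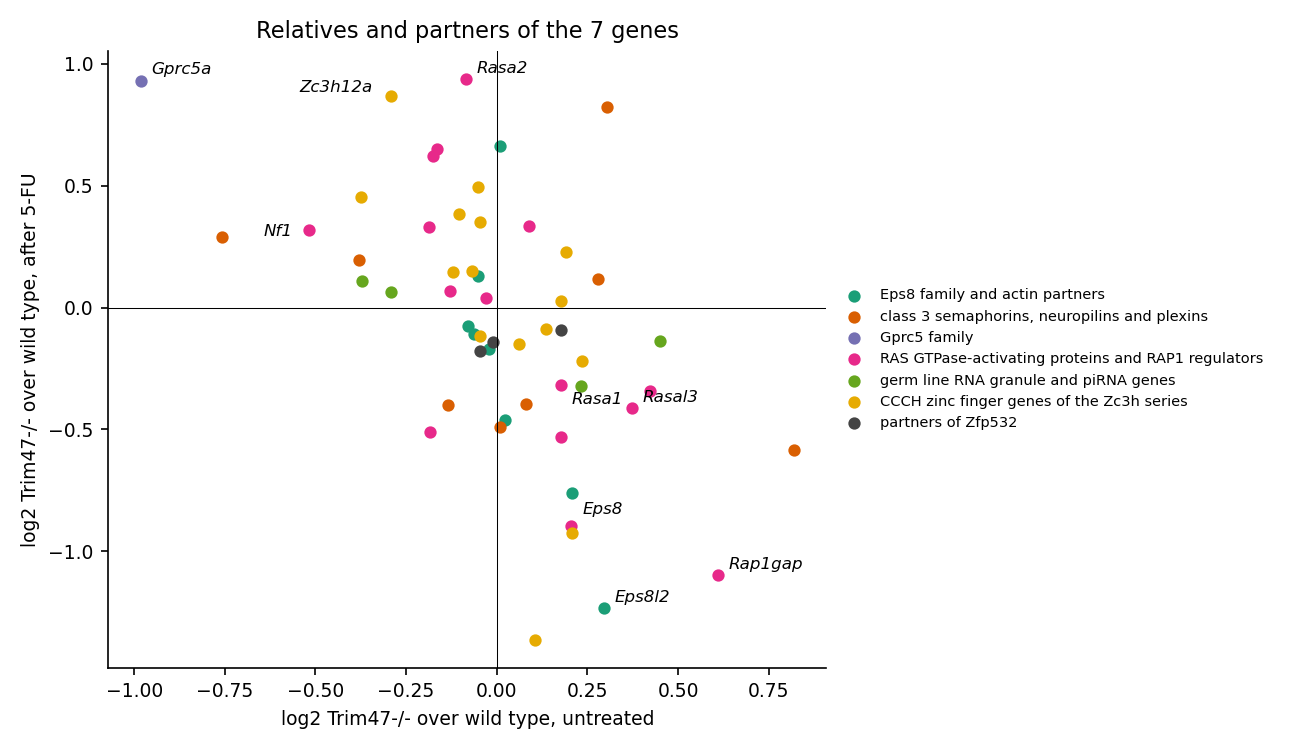
Log2 difference of Trim47-/- from wild type, untreated (horizontal) and after 5-FU (vertical), for the 54 tested relatives and partners, coloured by list. Eps8l2 and Rap1gap lie at the lower right, at 0.29 and -1.23 and at 0.61 and -1.10, and Gprc5a at the upper left, at -0.98 and 0.93.

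Markers of the labelled cells and of other marrow cells also differed between the groups, not all in the order of the 7 genes. The 10 LT-HSC markers, Kit, Hlf and Procr among them, summed to 897.5 to 1004 CPM in wild type without 5-FU and 1024 to 1130 CPM in untreated Trim47-/-. After 5-FU they summed to 917 to 1074 CPM in wild type and 552 to 635 CPM in Trim47-/-. Kit, the largest part of each sum, averaged 466, 495, 459 and 302 CPM in that order of groups. In untreated cells 4 of the 10 rose and none fell, and after 5-FU none was higher and 9 were lower, with medians of 0.20 and -1.11. Slamf1, Kit, Fgd5 and Hoxb5 had the same order of all 12 libraries as 6 of the 7 genes. Within Trim47-/-, however, Slamf1 was higher after 5-FU (0.99), Kit (-0.71) and Fgd5 (-2.08) were lower, and Hoxb5 was not called (-0.11). All 10 passed the filter on low counts. The labels do not name the surface markers that defined the isolated cells.

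Of 7 endothelial markers tested, 3 rose untreated and 4 were lower after 5-FU, and their sum was 18.4 to 19.8, 27.7 to 29.0, 21.9 to 24.7 and 10.6 to 14.4 CPM in the order of the groups above. Cldn5, Kdr and Emcn had the up and then down order, but Cldn5 averaged at most 1.18 CPM in a group and Cdh5 1.08 CPM. Monocyte and macrophage markers moved the other way. Of 8, none rose and 6 fell untreated and 8 were higher after 5-FU, and their sum was 381 to 400.1, 204 to 219, 307 to 313 and 663 to 687 CPM. Of 8 neutrophil markers, 6 rose and 2 fell untreated and 8 were higher after 5-FU. They summed to 2968 to 3099.9 CPM in untreated wild type, 3002 to 3046 in untreated Trim47-/-, 3612 to 3699.5 in wild type after 5-FU and 5742 to 6131 in Trim47-/- after 5-FU. Mpo, the largest part of each sum, averaged 1899, 1731, 1831 and 3285 CPM and was among those that fell untreated. Of 8 megakaryocyte and platelet markers, none rose and 5 fell untreated and 8 were lower after 5-FU. They summed to 122 to 124, 96.5 to 100.6, 267 to 270.1 and 199 to 204 CPM, of which Itga2b, the largest part, averaged 73.1, 58.1, 180 and 136 CPM. None of the marker genes in the table was at 0 in all libraries. The part of these cells, or of a different share of stem cells, in the levels of the 7 genes was not tested.

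**Figure D5:**
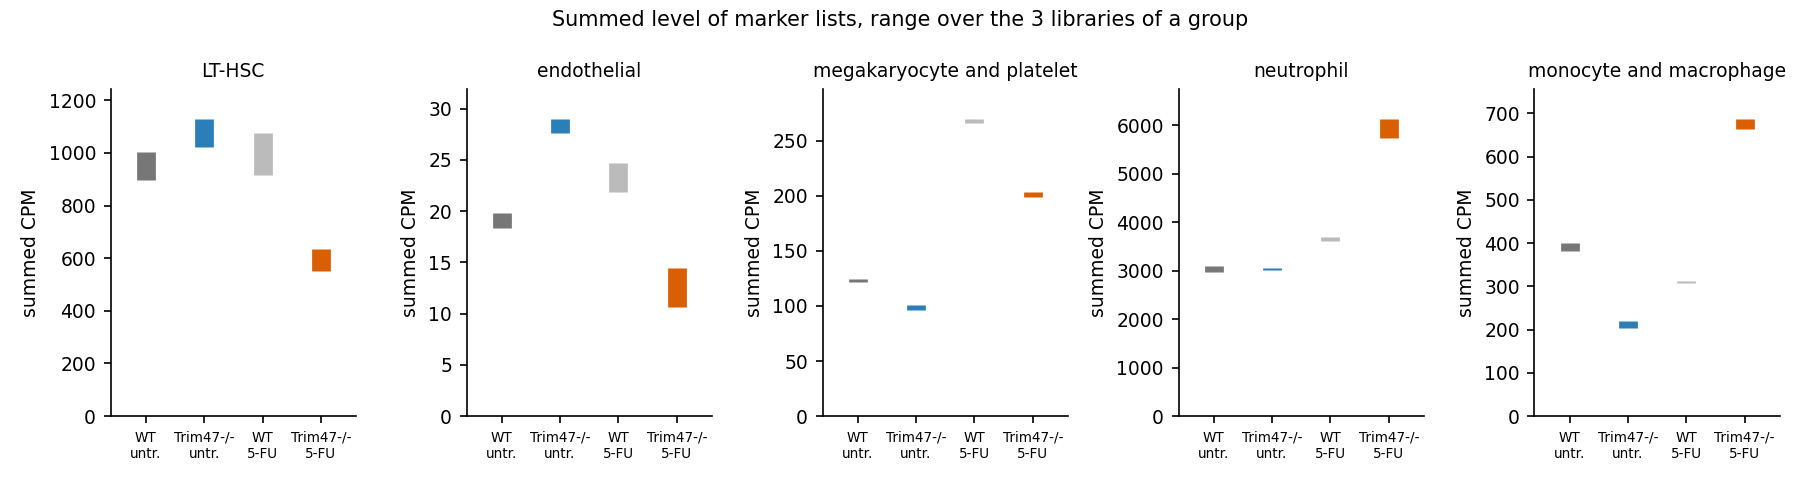
Summed CPM of 5 marker lists (vertical axis, from 0), each bar spanning the 3 libraries of a group. The LT-HSC and endothelial sums were lowest in Trim47-/- after 5-FU (552 to 635 and 10.6 to 14.4 CPM), where the monocyte sum was highest (663 to 687 CPM). Emcn was the largest part of the endothelial sum and Kit of the LT-HSC sum.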

How the data were processed

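Counts per gene and FPKM for 12 libraries were deposited in 1 table with names and coordinates. The libraries were stranded, paired-end and selected for poly-A RNA, per the labels' protocols. Per the submitters' processing notes the tools were CASAVA 1.8, HISAT2, StringTie and edgeR with GRCm38; which of them made the counts is not given in the sources used here, nor are the use of strand and the annotation. The deposited FPKM values were used only for levels between genes.

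Counts were tested in edgeR 4.0.16 (R 4.3.3; limma 3.58.1) with TMM scaling, its default filter on low counts, 1 mean per group, all 12 libraries in 1 fit and the quasi-likelihood test. Calls are at a Benjamini-Hochberg adjusted p under 0.05 over 16319 genes. The contrasts were coded as Trim47-/- minus wild type and 5-FU minus untreated. Log2 CPM used a prior count of 2. The mean 5-FU contrast of the fit was run on counts simulated with the spread estimated from these data. The other contrasts were not run so, and the simulation cannot show whether the spread between libraries is technical. Alternatives were DESeq2 size factors, the DESeq2 1.42.0 test, no filter, a replicate block, stricter thresholds and each library left out. Of 28999 identifiers, 28885 were in GENCODE M21. Python 3.11.15, numpy 2.4.6, pandas 2.3.3, scipy 1.17.1 and matplotlib 3.10.9 were used.

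The 7 genes, the lists of relatives and markers and the rule for named genes were chosen with earlier results of these data known. The rule named the 7, Trim47, per gene the 2 most similar genes and the nearest tested gene on either side, and up to 3 relatives with the smallest p per list and contrast beside those of the same named family. Genes named beyond this were chosen after their values were seen. Some items that the rule names are not reported here.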

Additional observations from a re-analysis of the deposited data

Results flagged for a closer look

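Genotype differences that turned over between untreated cells and cells after 5-FU are given by their interaction on the log2 scale. For 6 of the 7 genes all libraries lay in opposite order before and after 5-FU: Zfp532 (-2.64), Eps8l1 (-2.55), Zc3h6 (-2.55), Gprc5b (-2.49), Ddx4 (-2.20) and Sema3d (-2.11). No p is given for them, since this difference chose them.

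For the relatives named next, both genotype differences and the interaction passed at an adjusted p under 0.05 in edgeR's quasi-likelihood test, with opposite signs. Negative were Rap1gap (-1.71), Eps8l2 (-1.53), Eps8 (-0.97), Rasal3 (-0.78), Sipa1 (-0.77), Rasa1 (-0.49), Zc3h7b (-0.45) and Zfp592 (-0.27). Positive were Gprc5a (1.91), Zc3h12a (1.16), Nf1 (0.84), Zc3h7a (0.83), Rap1b (0.80), Rasa4 (0.52) and Zc3h15 (0.49). The LT-HSC markers Slamf1 (-2.12), Fgd5 (-1.93) and Kit (-0.69) met the same criterion, as did the endothelial markers Cldn5 (-2.70), Kdr (-2.02) and Emcn (-1.85).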

How the results depend on the processing

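With a fold threshold of 2, the mean 5-FU response had 1324 genes in place of 9258, 1009 of them lower in place of 4774, and 2 of the 7 genes in place of 5. With it 0 relatives were higher and 0 lower in untreated Trim47-/-, and 0 were higher and 3 lower after 5-FU. Relatives higher in untreated Trim47-/-, 12 in the reported fit, numbered 5 at an adjusted p under 0.01 and 7 in the DESeq2 test, and 7 to 13 with 1 library left out. Zc3h6, not called in the mean 5-FU response, went from -0.06 to between -0.13 and 0.00093 with 1 library left out, the latter without replicate 2 of wild type after 5-FU. The order of libraries held in 7 of the 7 genes without replicate 1 of either genotype after 5-FU. Of 560 other values of the 7 genes under alternatives, 3 moved by more than the spread between replicates, all without replicate 3 of wild type after 5-FU: Sema3d between genotypes after 5-FU (-1.08), and Zc3h6 in the wild-type response (1.07) and the interaction (-2.40). The cause was not tested. The spread used was each gene's own pooled SD of log2 CPM, from 0.0908 for Sema3d to 0.268 for Rasa3. Rasa3, at -0.92 to -0.57 between genotypes after 5-FU, was therefore not counted as moved. Same-numbered libraries did not pair (r = -0.21 to 0.21 over 18 pairs, and -0.23 to 0.24 over 36 pairs of different number). With the replicate block 9117 genes passed in the mean 5-FU response, 5 of the 7 among those lower, and no call of the 7 changed. Among the 7, Zfp532 had the fewest counts, 44 to 71 in Trim47-/- after 5-FU. Some relatives and markers had fewer, Cldn5 at most 25 in a library and Cdh5 at most 17.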

Other observations

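The up and then down order of all 12 libraries was found in 2443 of 16319 tested genes. Among them 45 differed at least 2-fold in both states, Eps8l1 and Gprc5b with them, and 487 by at least 0.5 on the log2 scale, which takes in 6 of the 7.

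Of the nearest tested genes on either side of the 7, 4 of 14 had the same order of libraries, beside 15% of all tested genes. They were Gm10762 (overlapping Zc3h6), Rdh13 (15025 bases from Eps8l1), 1700003C15Rik (614077 bases from Sema3d) and, for Rasa3, Gas6. Gas6, a ligand of TAM receptors, differed by 0.67 and then by -0.96 (adjusted p = 0.000111 and 1.55e-05 in edgeR's quasi-likelihood test) and lies 72458 bases from Rasa3. Rdh13 differed by 0.39 and -0.25, and 1700003C15Rik by 1.75 and -1.04, the latter not passing. Malt1, an NF-kB signalling gene 100845 bases from Zfp532, had the opposite order (-1.23 and 0.82). Of 8 erythroid markers, a lineage in which Rasa3 is known to act, 5 rose and 1 fell in untreated Trim47-/-, and 1 was higher and 4 were lower after 5-FU, with medians of 0.59 and -0.21. Slc4a1, Hba-a1 and Ermap had the up and then down order of all libraries, while Tfrc, the transferrin receptor gene, ran the other way (-0.26 and 0.36) and made up most of the untreated sum. That order is between genotypes. Within Trim47-/-, Slc4a1 (1.34) and Hba-a1 (1.38) were higher after 5-FU, where all 7 genes were lower. Their genotype differences after 5-FU were small, -0.10 for Slc4a1, not called, and -0.14 for Hba-a1. The 8 erythroid markers summed to 278 to 286 CPM in untreated wild type, 296 to 304 in untreated Trim47-/-, 516 to 529 in wild type after 5-FU and 529.6 to 539 in Trim47-/- after 5-FU. Of 4 tested stromal markers 3 rose untreated and 2 were lower after 5-FU, and of 7 B-cell markers 1 fell and 4 were lower. Stromal markers summed to 74.6 to 79.5, 95.4 to 101.5, 67.5 to 73.1 and 51.7 to 56.1 CPM, and B-cell markers to 29.3 to 31.2, 29.6 to 31.96, 21.8 to 25.7 and 18.4 to 22.2 CPM. Pdgfrb alone averaged 72.3, 89.1, 63.4 and 48.7 CPM in the same order of groups and made up most of each stromal sum. Cd79b, at 16.3, 19.3, 19.5 and 17.8 CPM, was the largest part of each B-cell sum.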
